A study of Mus musculus with 9 samples.

Results

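Transcripts of 10 nuclear genes that copy, transcribe and package mitochondrial DNA, or switch such genes on, were examined in regulatory T cells (Treg cells) whose Esrrg gene was floxed and exposed to Cre recombinase. The genes were taken by symbol (Tfam, Tfb1m, Tfb2m, Polrmt, Polg, Polg2, Nrf1, Gabpa, Mterf3 and Ssbp1), and all 10 were found among the 26683 rows of the count table. Bulk RNA was sequenced from splenic CD4-positive cells sorted by a yellow fluorescent reporter of Foxp3. Each library came from 1 mouse, labelled as female and 2 to 3 months old. The 4 knockout mice (KO, EsrrgNf/f.Foxp3YFP-Cre) and the 5 control mice (WT, B6N.Foxp3YFP-Cre) share the Foxp3-driven YFP-Cre allele, so Cre acts in cells that express Foxp3, and only KO mice carry the floxed Esrrg gene. The labels give the B6N strain for WT alone, and a difference of strain or colony cannot be told apart from genotype. The series title places Esrrg, which encodes estrogen-related receptor gamma, in the mitochondrial metabolism of Treg cells, and the comparison asks which transcripts differ between the genotypes.

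Mitochondria keep a small circular genome that is transcribed by POLRMT, a polymerase of its own, which needs TFAM to bend the promoter DNA and TFB2M to melt it. TFAM also coats the genome into nucleoids. The genome is copied by POLG, held on its template by the accessory subunit POLG2, while SSBP1 covers the exposed strand. TFB1M methylates the ribosomal RNA of the mitochondrial small subunit, and MTERF3 acts in transcription and ribosome assembly. NRF1 and GABPA are nuclear transcription factors known for binding promoters of many genes of this machinery.

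The promoters of 4 members are shown because GABPA belongs to the ETS family, whose core letters CCGGAAG recur in them, and because these members include Tfam, both polymerases and the member with the largest difference between the genotypes, Polg2. Each line holds the 150 bases before the start annotated by RefSeq, 5′ to 3′ on the strand of the gene, from RefSeq (GRCm38.p6). Capitals mark the searched letters, CCGGAAG or the longer CCGGAAGT on either strand, and GCGCANGC, the core of the NRF1 motif, on either strand.

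Tfam, chr10:71238045-71238194, minus strand: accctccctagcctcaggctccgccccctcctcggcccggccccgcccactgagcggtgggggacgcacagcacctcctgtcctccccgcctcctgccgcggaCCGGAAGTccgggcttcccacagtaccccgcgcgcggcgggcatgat
Polg, chr7:79466274-79466423, minus strand: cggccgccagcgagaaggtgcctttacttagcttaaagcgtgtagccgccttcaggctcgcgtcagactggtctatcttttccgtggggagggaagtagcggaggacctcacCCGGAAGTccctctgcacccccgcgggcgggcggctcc
Polrmt, chr10:79746582-79746731, minus strand: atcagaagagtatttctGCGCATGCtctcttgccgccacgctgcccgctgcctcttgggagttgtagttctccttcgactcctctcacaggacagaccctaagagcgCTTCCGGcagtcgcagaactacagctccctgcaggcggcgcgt
Polg2, chr11:106779538-106779687, minus strand: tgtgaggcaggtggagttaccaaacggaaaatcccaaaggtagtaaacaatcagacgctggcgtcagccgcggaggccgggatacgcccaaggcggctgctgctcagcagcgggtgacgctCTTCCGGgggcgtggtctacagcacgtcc

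A promoter window was listed for 9 of the 10 members, counting 2 windows for Nrf1. Over the 250 bases before the start, the ETS core CCGGAAG lay in windows of 6 members (Tfam, Polg, Polrmt, Polg2, Ssbp1 and Gabpa). It lay in 14.0% of the 11610 windows of tested genes and in 6.91% of all 32851 windows. The longer CCGGAAGT, which contains the core, was found in Tfam, 47 bases before the RefSeq start, and in Polg, 38 bases before it, against 6.06% of windows of tested genes. The NRF1 core GCGCANGC was found in Polrmt alone (16.4% of windows of tested genes), and the full NRF1 motif, in which GC follows that core, in 0 of the members (8.23% of those windows). The RefSeq start lies inside the gene as GENCODE annotates it for Tfam (by 236 bases), Gabpa (199), Ssbp1 (116) and Polg (89), so that by GENCODE's outermost start the matches of these 4 lie downstream of it. For Polrmt and Polg2 both annotations give the same start. These are letter matches in a fixed window and say nothing of binding in these cells.

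Library totals ran from 15386929 to 17425634 counts in KO and from 15269014 to 16874301 in WT. Esrrg had 0 counts in all 4 KO and all 5 WT libraries, where 3 counts equal 0.172 CPM (counts-per-million of the library total) in KO 1 and up to 0.196 CPM in WT 4, so its loss was not detectable at this depth and the labels could not be checked by it. The library labelled KO 4 held 27 counts of Xist, against 27355 to 35693 in the other 8 libraries. The labels give all mice as female, which the Xist count of KO 4 does not bear out. The sex and identity of this library were not tested. The sums of Treg markers were alike, at 4278 to 4705 CPM in KO and 4370 to 4638 CPM in WT over 7 genes. Plasma cell markers (4 of 4 listed genes present) summed to 31.2 to 485 CPM in KO and 15.2 to 65.3 CPM in WT, highest in KO 4 and KO 1, and neutrophil markers (5 of 5 present) to 0.443 to 23.5 CPM in KO and 0.243 to 4.19 CPM in WT. Cycling markers (Mki67, Top2a, Ccnb1, Cdk1, Mcm5 and Pcna) summed to 718, 393, 448 and 828 CPM in KO 1 to KO 4, and to 349, 526, 295, 351 and 327 CPM in WT 1 to WT 5.

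None of the 10 members differed between the genotypes past the test. By edgeR's quasi-likelihood test with Benjamini-Hochberg adjustment over all 12738 tested genes, 0 of the 10 passed an adjusted p of 0.05, against 3.28% of all tested genes (1.4% higher in KO and 1.88% lower in KO). DESeq2 and limma-voom also called 0 members. At an unadjusted p under 0.05 there was 1 member, Polg2, against 21.6% of all tested genes. The CPM values of KO and WT overlapped for all 10, whereas 9.1% of all tested genes had groups that did not overlap. The log2 fold change (KO over WT) was below 0 for 8 of the 10 members, against 48.5% of all tested genes, with a member median of -0.05 against 0.0052 over all tested genes. In bulk RNA, fewer cells of a type and less RNA per cell cannot be told apart.

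**Figure D1:**
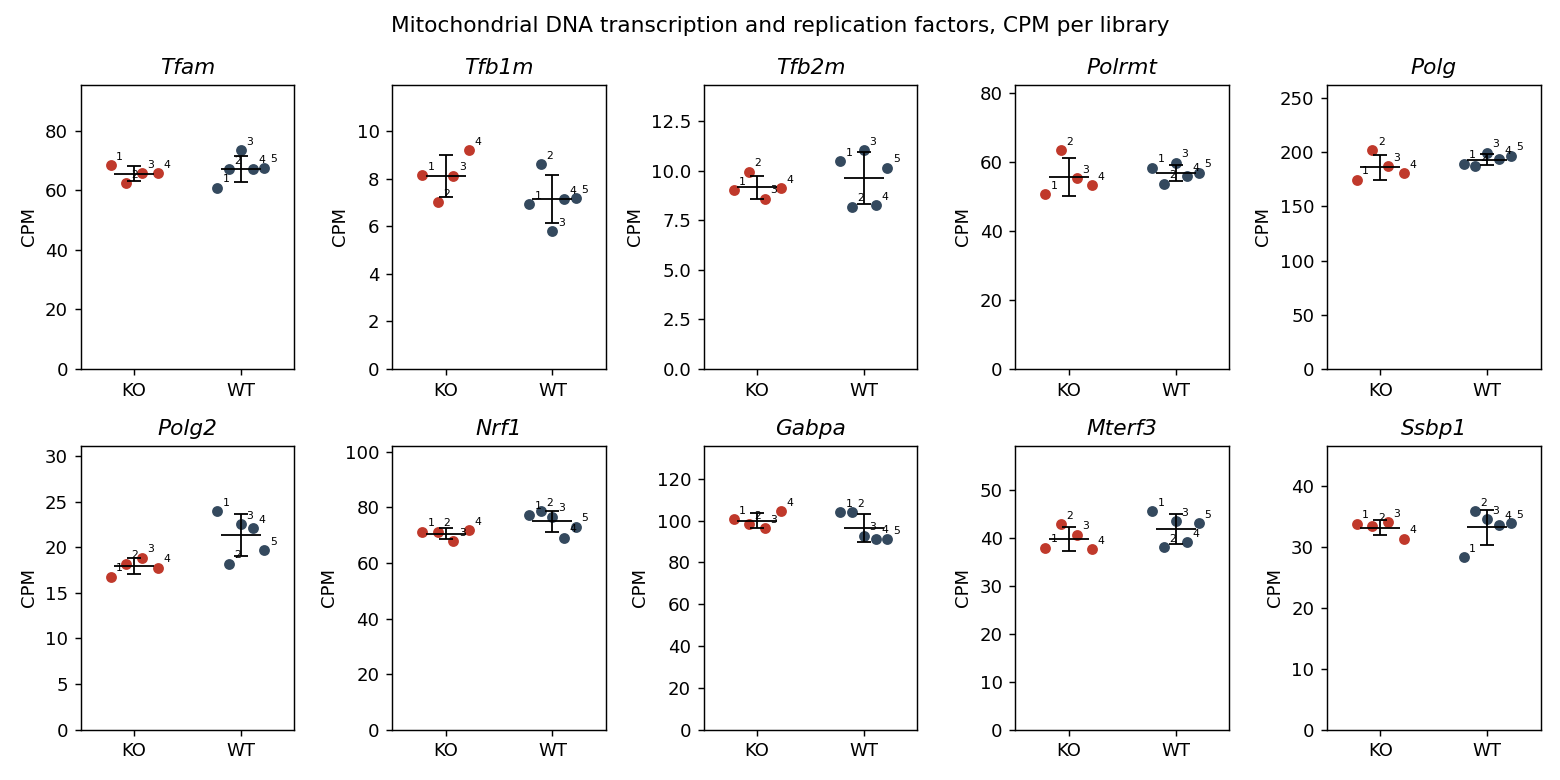
CPM of each member in every library, KO on the left and WT on the right of each panel, with the replicate number beside each point and the mean with its SD as a bar. The groups overlap in all 10 panels, and relative to its level Polg2 shows the widest gap, with means of 17.9 CPM in KO and 21.3 CPM in WT.

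Of the transcription machinery, 0 members passed the test, and the 95% intervals left room for differences of unequal size. Tfam (chromosome 10, 71225464 to 71238280, minus strand) had 68.5, 62.4, 65.8 and 65.8 CPM in KO 1 to KO 4, and 60.9, 67.2, 73.4, 67.3 and 67.6 CPM in WT 1 to WT 5. The KO values all lay inside the WT range. Its log2 fold change was -0.04 ± 0.05 (SE, n = 4 and 5, edgeR adjusted p = 0.697), with a 95% interval of 0.908-fold to 1.05-fold of the WT level.

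Polrmt, the mitochondrial RNA polymerase (chromosome 10, 79736123 to 79746581, minus strand), had 50.6, 63.3, 55.3 and 53.2 CPM in KO 1 to KO 4. It had 58.3, 53.7, 59.7, 55.8 and 56.8 CPM in WT 1 to WT 5. Both the lowest and the highest library were KO, so that the spread in KO (55.6 ± 5.47 CPM, SD, n = 4) exceeded that in WT (56.9 ± 2.32 CPM, n = 5). The log2 fold change was -0.03 ± 0.07 (edgeR adjusted p = 0.814), and it was 0.07 without KO 1 and KO 4.

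Tfb2m and Tfb1m, related to each other in sequence but with different tasks, were the least abundant members by count. Tfb2m (chromosome 1, 179528055 to 179546267, minus strand) averaged 9.16 ± 0.567 CPM in KO and 9.62 ± 1.31 CPM in WT (SD, n = 4 and 5), with a log2 fold change of -0.07 (edgeR adjusted p = 0.754). Tfb1m (chromosome 17, 3519256 to 3557781, minus strand) had 8.15, 7.03, 8.12 and 9.19 CPM in KO 1 to KO 4, and 6.93, 8.62, 5.78, 7.14 and 7.19 CPM in WT 1 to WT 5. The 2 highest libraries were KO 4 and WT 2, and the lowest was WT 3. The log2 fold change of Tfb1m was 0.19 ± 0.12 (edgeR adjusted p = 0.406), with a 95% interval of 0.944-fold to 1.37-fold, against 0.804-fold to 1.13-fold for Tfb2m. It rested on 95 to 148 counts per library, where counting alone gives a coefficient of variation of 9.03%, against 13.7% observed over the 9 libraries.

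Mterf3 (chromosome 13, 66906968 to 66933088, minus strand) had 38.0, 42.9, 40.8 and 37.7 CPM in KO 1 to KO 4, and 45.6, 38.2, 43.5, 39.1 and 43.2 CPM in WT 1 to WT 5. The groups overlapped over most of their range, with a log2 fold change of -0.07 ± 0.07 (edgeR adjusted p = 0.554). Without KO 1 and KO 4 it was 0.0092.

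Among the replication factors, Polg2 had the largest fold change, which did not pass the test. Polg (chromosome 7, 79446231 to 79466362, minus strand), the catalytic subunit, had 175, 202, 187 and 181 CPM in KO 1 to KO 4, and 189, 187, 199, 194 and 197 CPM in WT 1 to WT 5. KO held both the lowest and the highest value. Its log2 fold change was -0.05 ± 0.05 (edgeR adjusted p = 0.529), and 0.02 without KO 1 and KO 4.

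Polg2 (chromosome 11, 106768253 to 106779537, minus strand), the accessory subunit, had 16.8, 18.2, 18.8 and 17.8 CPM in KO 1 to KO 4, and 23.9, 18.2, 22.5, 22.1 and 19.7 CPM in WT 1 to WT 5. The KO values clustered within a narrow range at the low end, and WT 2 alone among the WT libraries reached into it. The log2 fold change was -0.25 ± 0.09 (edgeR unadjusted p = 0.0129, adjusted p = 0.125), a level of 0.839-fold of WT with a 95% interval of 0.736-fold to 0.957-fold. Its sign was the same in each of 19 alternative fits, with log2 fold changes of -0.31 to -0.19 and adjusted p of 0.0505 to 0.473. Ssbp1 (chromosome 6, 40471352 to 40484700, plus strand) averaged 33.2 ± 1.22 CPM in KO and 33.3 ± 2.89 CPM in WT, with a log2 fold change of -0.0042 ± 0.064 (edgeR adjusted p = 0.978). Its lowest library was WT 1, at 28.4 CPM, against 31.4 to 35.9 CPM in the other 8.

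The nuclear factors Nrf1 and Gabpa differed in opposite directions, neither past the test. Nrf1 (chromosome 6, 30047988 to 30153458, plus strand) had 71.3, 71.3, 67.8 and 71.9 CPM in KO 1 to KO 4, and 77.5, 78.7, 76.7, 69.2 and 73.0 CPM in WT 1 to WT 5. Of the WT libraries, 4 lay above all KO libraries, and WT 4 lay among them. The log2 fold change was -0.09 ± 0.05 (edgeR adjusted p = 0.279). Gabpa (chromosome 16, 84834925 to 84863779, plus strand) had 101, 98.4, 96.3 and 105 CPM in KO 1 to KO 4, and 104, 104, 92.7, 91.3 and 91.2 CPM in WT 1 to WT 5. KO 4 was the highest of all libraries, the WT libraries fell into 2 near it and 3 below all KO libraries, and the log2 fold change was 0.05 ± 0.05 (edgeR adjusted p = 0.643).

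**Figure D2:**
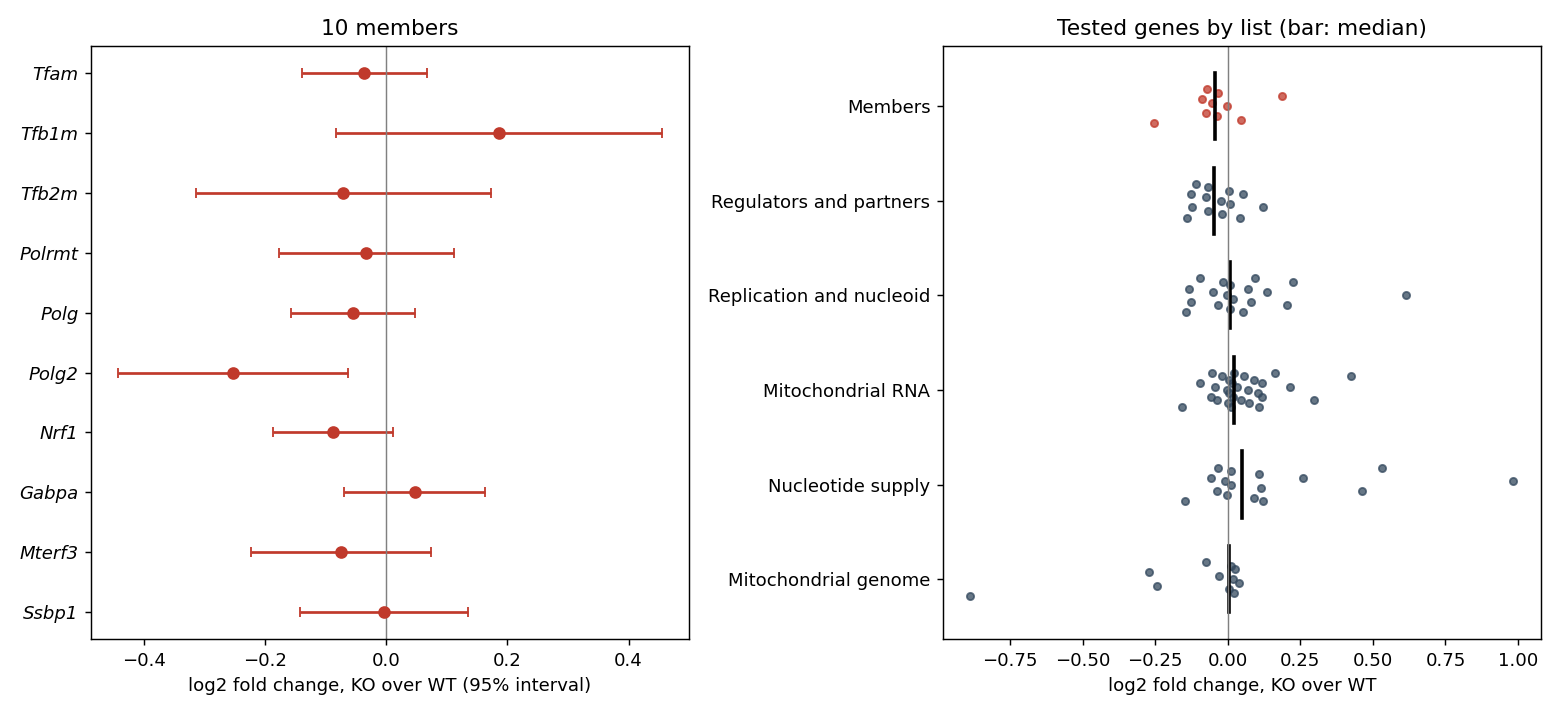
Left, log2 fold change (KO over WT) of each member with its 95% interval from the edgeR fit. Right, the log2 fold changes of tested genes in each list, 1 point per gene with a black bar at the median. The interval of Polg2 (-0.44 to -0.06) lies below 0 before adjustment, those of the other 9 members span 0, and the list medians lie between -0.05 and 0.05.

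The ratio of Gabpa to Nrf1 was higher in KO. Ratios of counts within a library need no scaling between libraries, and 4 pairs were compared. They were working partners, relatives or, for Gabpa and Nrf1, nuclear transcription factors known for binding promoters of this machinery. Gabpa counts were 141%, 138%, 142% and 145% of Nrf1 counts in KO 1 to KO 4, and 134%, 132%, 121%, 132% and 125% in WT 1 to WT 5. All 4 KO libraries lay above all 5 WT libraries. Of all tested genes taken singly, 9.1% had CPM groups that did not overlap. The share among ratios of other gene pairs was not computed. The log2 ratio was 0.50 ± 0.03 in KO and 0.36 ± 0.06 in WT (SD, n = 4 and 5), a difference of 0.14 with exact permutation p = 0.0079 (two-sided, the smallest that 126 splits allow) and 0.0317 after adjustment over the 4 ratios. The groups did not overlap in any of the 9 sets that left out 1 library, nor without KO 1 and KO 4, but the adjusted p no longer passed in any of these (0.0714 to 0.143 without 1 library, highest without KO 4, and 0.317 without both). Gabpa shares 397 bases of exon, 6.98% of its merged exons, with Atp5j on the opposite strand. Atp5j, a subunit gene of ATP synthase, stood at 84.7 to 90.8 CPM in KO and 71.1 to 83.9 CPM in WT, and its part in the ratio was not tested, since no source used here states how strand was treated in counting.

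The other ratios did not pass. Polg2 counts were 9.59%, 9.01%, 10.1% and 9.83% of Polg counts in KO 1 to KO 4, against 12.7%, 9.74%, 11.3%, 11.4% and 9.99% in WT 1 to WT 5. The groups overlapped at WT 2 and WT 5, and the log2 difference was -0.19 (exact permutation p = 0.0794, adjusted 0.159). The log2 ratio of Tfb1m to Tfb2m differed by 0.25 (KO minus WT, exact permutation p = 0.278, adjusted 0.370), with counts of Tfb1m at 70.7% to 101% of Tfb2m in KO and 52.5% to 105% in WT. Polrmt to Tfam differed by -0.0020 (exact permutation p = 0.984), at 73.9% to 101% in KO and 79.9% to 95.7% in WT.

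**Figure D3:**
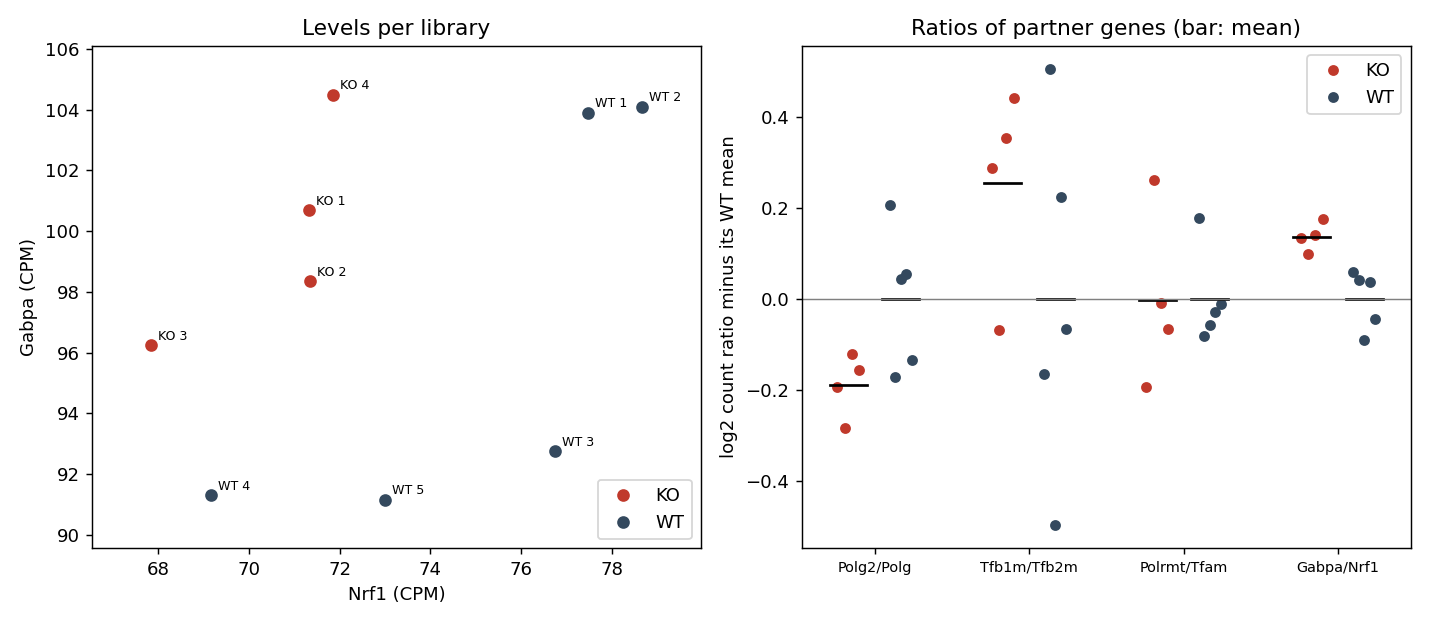
Left, Gabpa against Nrf1 in CPM, 1 point per library. Right, the log2 count ratio of 4 gene pairs per library, with the WT mean of each pair set to 0 and bars at the group means. In the Gabpa/Nrf1 column all 4 KO points lie above all 5 WT points, and the groups overlap in the other 3 columns.

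From mouse to mouse, members did not vary together as a set, with a median Pearson r of 0.02 over pairs, and 1 pair passed. Over the 9 libraries, 23 of the 45 pairs of members had a positive Pearson r of log2 CPM, and r ran from -0.77 to 0.90. Only Polrmt with Polg passed, with r = 0.90 (exact permutation p = 0.0010, adjusted 0.0450 over 45 pairs) and Spearman rho = 0.95 (exact permutation p = 3.5e-04, adjusted 0.0159). Without KO 1 and KO 2, the libraries farthest from the median of Polrmt, r was 0.79 (exact permutation p = 0.0371). With values centred within each genotype it was 0.93 (exact permutation p = 0.0056, adjusted 0.125). The adjusted p stayed under 0.05 without WT 1 and was 0.0541 to 0.232 without any of the other 8 libraries. Mterf3 followed Polrmt with r = 0.79 (exact permutation p = 0.0102, adjusted 0.166). By r with Polrmt, Polg ranked 19 and Mterf3 191 among 8782 other tested genes with a mean of at least 10 CPM. Tfb1m ran the other way, with r of -0.77 against Mterf3, -0.75 against Polg, -0.72 against Polrmt and -0.72 against Tfb2m (exact permutation p of 0.0152, 0.0189, 0.0272 and 0.0295, each 0.166 after adjustment). By Spearman's rho, Tfb1m with Mterf3 and Tfb1m with Polrmt also passed, both at -0.88 (exact permutation p = 0.0031, adjusted 0.0461).

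The libraries at the ends of these patterns differed in cycling markers, which led to a comparison chosen after the values were seen. Its p-values come from the same libraries that prompted it, so they describe these relations and are no independent test of them. Tfb1m was higher in libraries with more cycling marker RNA, with r = 0.84 over 9 libraries (exact permutation p = 0.0013, adjusted 0.0127 over 10 members) and rho = 0.87 (exact permutation p = 0.0045, adjusted 0.0202). Without KO 1 and KO 4, the libraries farthest from the median of these markers, r was 0.92 (exact permutation p = 0.0034), and within genotypes it was 0.79 (exact permutation p = 0.0017, adjusted 0.0174). Polg was lower in such libraries, with r = -0.84 (exact permutation p = 0.0035, adjusted 0.0173) and rho = -0.80 (exact permutation p = 0.0138, adjusted 0.0277), and r was -0.65 (exact permutation p = 0.121) without KO 1 and KO 4. Its adjusted p also missed 0.05 without WT 3, without WT 5 or without KO 4 (0.0562 to 0.0725), with r of -0.87 to -0.82, and within genotypes (r = -0.82, exact permutation, adjusted p = 0.0722). Mterf3 had r = -0.76 (exact permutation p = 0.0119, adjusted 0.0396) and rho = -0.90 (exact permutation p = 0.0020, adjusted 0.0202), and r was -0.67 (exact permutation p = 0.0937) without KO 1 and KO 4. Within genotypes it was -0.73 (exact permutation, adjusted p = 0.0498), and the adjusted p was 0.0573 to 0.121 without any 1 of WT 3, WT 5 and the 4 KO libraries. Gabpa did not pass over all libraries (r = 0.64, exact permutation p = 0.0606, adjusted 0.101, rho = 0.72 with exact permutation p = 0.0369, adjusted 0.0614) but did within genotypes (r = 0.61, exact permutation, adjusted p = 0.0498). Polrmt and Polg2 had r of -0.71 and -0.72, neither past adjustment (exact permutation p of 0.0312 and 0.0294, adjusted 0.0625 for both), although their rho of -0.80 and -0.85 passed (exact permutation, adjusted p of 0.0277 and 0.0202). By Pearson's r 3 of the 10 relations passed over all libraries (Tfb1m, Polg and Mterf3), 3 within genotypes (Tfb1m, Gabpa and Mterf3), 1 without WT 3 or without WT 5, and 0 without KO 4, with Tfb1m then at r = 0.75 (exact permutation, adjusted p = 0.0725). KO 4 and KO 1 were also the libraries highest in plasma cell and neutrophil markers, and the part of those cells in these relations was not tested. The share of all tested genes that follow the cycling markers as closely was not computed. Whether these counts are particular to the members therefore cannot be told.

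**Figure D4:**
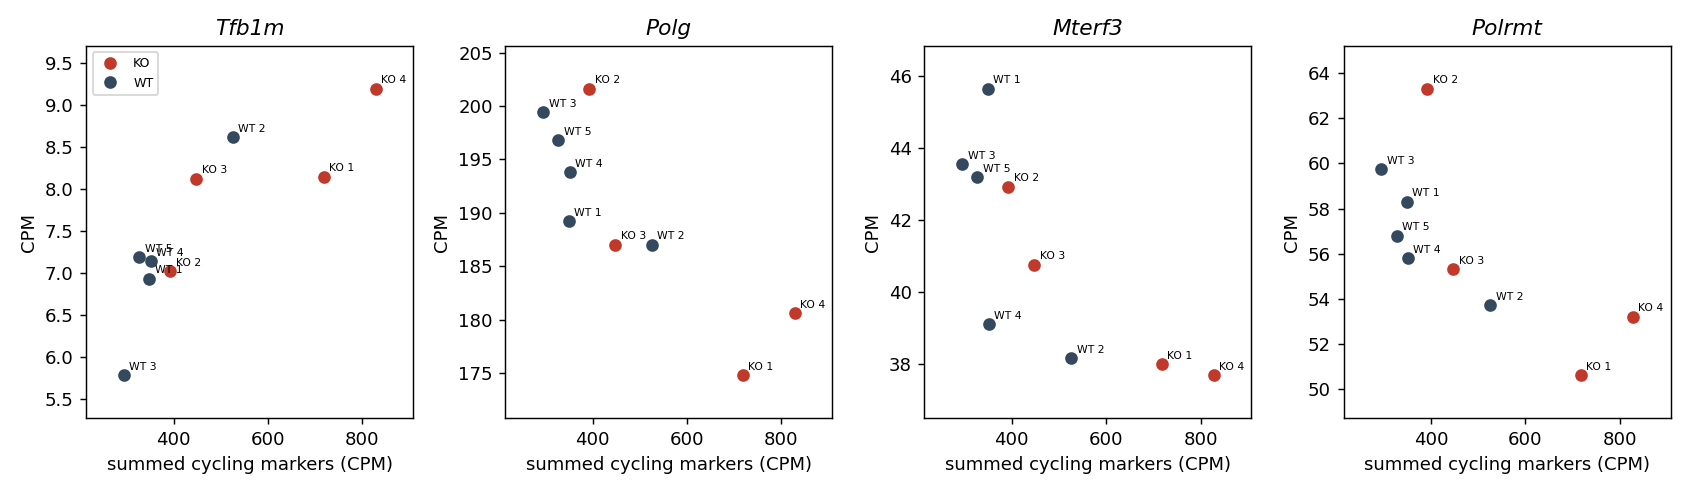
CPM of 4 members against the summed CPM of 6 cycling markers, 1 point per library. Tfb1m is highest in KO 4 (828 CPM of markers) and lowest in WT 3 (295 CPM), whereas Polg, Mterf3 and Polrmt are low in KO 1 and KO 4.

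Mitochondrial genome transcripts, the product of this machinery, took a similar share of counts in both genotypes. Genes with the prefix mt- (21 rows) held 1.57%, 1.66%, 1.75% and 1.55% of counts in KO 1 to KO 4, and 2.01%, 1.57%, 1.62%, 1.49% and 1.55% in WT 1 to WT 5. WT 1 stood above the other 8 libraries. The mean share was 1.63% ± 0.0921 in KO and 1.65% ± 0.206 in WT (SD, n = 4 and 5, exact permutation p = 0.960). Without WT 1 the difference was 0.0747 percentage points, higher in KO (exact permutation p = 0.171).

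Among the rows counted, few genes carried the share. mt-Co1, a subunit of cytochrome c oxidase, held 40.7% of mt- counts and the ribosomal RNA genes 2.82%. Of 10 protein-coding rows, 7 had counts in all libraries, and mt-Atp6, mt-Co3 and mt-Nd3 summed to 1 count. The protein-coding genes mt-Co2, mt-Atp8 and mt-Nd4l had no row. The share therefore does not cover the whole genome, and the part that each gene holds depends on the rows counted. Why these rows were empty or absent was not tested, nor was the part of library preparation in the levels of mt- genes. Per kilobase, mt-Nd6, the protein-coding gene on the other strand, stood at 7.88 ± 2.05 CPM in KO and 7.78 ± 1.05 CPM in WT, against 1102 ± 70.9 and 1098 ± 117 CPM for its neighbour mt-Nd5. mt-Rnr2, the large ribosomal RNA, had 260, 293, 285 and 259 CPM in KO 1 to KO 4, and 555, 389, 260, 217 and 197 CPM in WT 1 to WT 5. Its WT libraries spread far more widely than its KO libraries, and the log2 fold change was -0.24 ± 0.33 (edgeR adjusted p = 0.711). Of 11 tested mt- genes, 0 passed by edgeR, DESeq2 or limma-voom, and 0 had an unadjusted p under 0.05, against 21.6% of all tested genes. The smallest p among them were those of the transfer RNA genes mt-Tw, at 0.745 to 1.14 CPM in KO and 0.786 to 4.03 CPM in WT (-0.89, edgeR adjusted p = 0.291), and mt-Tt, at 0.869 to 1.52 CPM in KO and 0.567 to 2.49 CPM in WT (-0.27, edgeR adjusted p = 0.697).

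The members' levels did not track this share past adjustment. Over 9 libraries, Pearson r with the share was highest for Mterf3, at 0.67 (exact permutation p = 0.0263, adjusted 0.263 over 10 members, rho = 0.48 with exact permutation p = 0.194), and lowest for Ssbp1, at -0.71 (exact permutation p = 0.0660, adjusted 0.330, rho = -0.13 with exact permutation p = 0.744). Without KO 3 and WT 1, the libraries farthest from the median share, r was 0.57 for Mterf3 (exact permutation p = 0.231) and 0.09 for Ssbp1 (exact permutation p = 0.865). For Ssbp1 it was 0.12 without WT 1 alone and -0.78 without KO 3 alone, so its relation rests on WT 1. WT 1, which had the highest share, had the lowest Ssbp1 and the lowest Tfam, and Tfam had r = -0.60 with all libraries (exact permutation p = 0.116, adjusted 0.386, rho = -0.45 with exact permutation p = 0.230) and -0.10 without KO 3 and WT 1 (exact permutation p = 0.839). Polrmt had r = 0.33 (exact permutation p = 0.370, adjusted 0.537, rho = 0.35 with exact permutation p = 0.359) and 0.66 without those libraries (exact permutation p = 0.104). Polg2 had 0.49 (exact permutation p = 0.172, adjusted 0.430, rho = 0.18 with exact permutation p = 0.644) and -0.17 without them (exact permutation p = 0.712). With WT 1 alone left out, r was -0.21 for Tfam and -0.17 for Polg2, against -0.60 and 0.55 with KO 3 alone left out. For the remaining 5 members r lay between -0.24 (Tfb1m) and 0.41 (Tfb2m). The CPM of a member and the share have the library total in common, and with mitochondrial counts left out of the total 0 members passed as well.

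**Figure D5:**
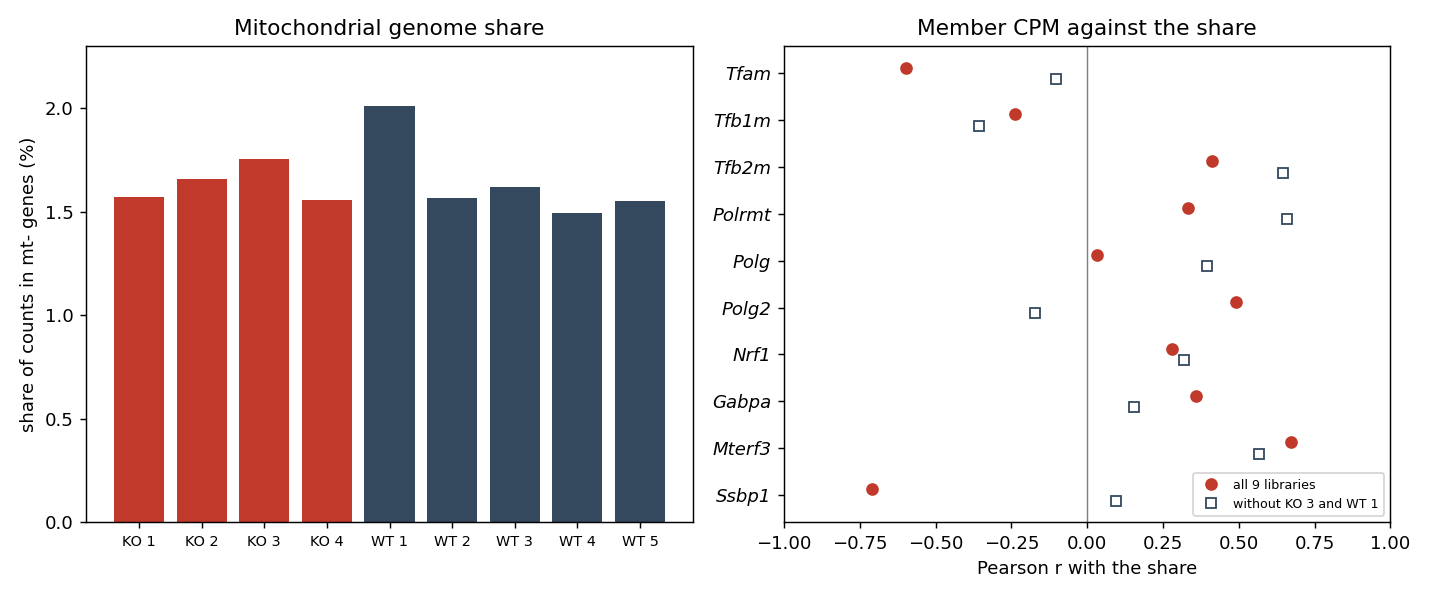
Left, the share of all counts in mt- genes per library, KO bars first. Right, Pearson r between each member's CPM and this share, over all 9 libraries (filled) and without KO 3 and WT 1 (open). WT 1 has the highest share (2.01%), and the r of Ssbp1 goes to 0.09 without the 2 libraries.

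Levels of the members were compared per kilobase of the principal annotated transcript. In KO, the CPM per kilobase was 37.6 ± 0.98 for Nrf1, 26.9 ± 1.67 for Mterf3, 23.7 ± 1.47 for Polg, 20.0 ± 0.71 for Gabpa, 15.8 ± 0.595 for Tfam, 14.8 ± 1.46 for Polrmt, 11.9 ± 0.58 for Polg2, 7.55 ± 0.278 for Ssbp1, 5.79 ± 0.63 for Tfb1m and 3.74 ± 0.232 for Tfb2m (SD, n = 4). The order of the group means was the same in WT. Tfam and Polrmt overlapped in both genotypes, as did Mterf3 and Polg in KO, and Polrmt with Polg2 and Tfb1m with Tfb2m in WT. The other neighbours in this order did not overlap. With merged exons as the length, a choice made after seeing the data, Nrf1 was at rank 6 and Polg at rank 1, while Polg2, Ssbp1, Tfb1m and Tfb2m remained the 4 lowest.

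The other lists of genes of the same pathway, chosen with earlier results of these data known, gave no calls by edgeR, which called 3.28% of all tested genes. Among regulators and partners of the nuclear factors, 0 of 14 tested genes passed, and the median log2 fold change was -0.05. An unadjusted p under 0.05 was seen for 4, against 21.6% of all tested genes. KO and WT did not overlap for 3, against 9.1% of all tested genes. DESeq2 called 2 of the 14, Gabpb2 and Hcfc1, and limma-voom 0. The share of all genes that DESeq2 called was not computed, so its count has no rate to be set against. Gabpb2, which encodes a beta subunit that joins GABPA to form the active factor, had 314, 310, 315 and 310 CPM in KO 1 to KO 4, and 326, 327, 354, 358 and 356 CPM in WT 1 to WT 5. All KO libraries lay below all WT libraries, with a log2 fold change of -0.14 ± 0.04 (edgeR adjusted p = 0.0630, DESeq2 adjusted p = 0.0067), and without WT 2 it passed edgeR too (adjusted p = 0.0306). The other beta subunit gene, Gabpb1, was at 62.6 ± 2.86 CPM in KO and 60.2 ± 2.64 CPM in WT (0.05, edgeR adjusted p = 0.499). Hcfc1, a coregulator that binds GABP, was at 344 to 371 CPM in KO and 309 to 340 CPM in WT, again without overlap (0.12 ± 0.04, edgeR adjusted p = 0.0767, DESeq2 adjusted p = 0.0084).

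Of 19 replication and nucleoid genes, all tested, 0 passed by edgeR, DESeq2 or limma-voom, with a median log2 fold change of 0.0081. An unadjusted p under 0.05 was seen for 3 (21.6% of all tested genes), and 3 had groups without overlap (9.1% of all tested genes). Dna2, a nuclease and helicase of both nuclear and mitochondrial replication, had the smallest p, with 13.1, 8.10, 8.19 and 15.6 CPM in KO 1 to KO 4 and 6.05 to 9.65 CPM in WT (0.61 ± 0.21, edgeR adjusted p = 0.136), highest in the libraries with the most cycling marker RNA. Top3a, a topoisomerase that separates finished mitochondrial genomes, stood at 26.2 to 26.7 CPM in KO and 27.4 to 30.6 CPM in WT, without overlap (-0.13 ± 0.05, edgeR adjusted p = 0.154). Twnk, the mitochondrial helicase (listed as Peo1), was at 25.4 ± 1.80 CPM in KO and 28.1 ± 2.3 CPM in WT (-0.14, edgeR adjusted p = 0.252).

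Among 29 genes of mitochondrial RNA elongation, processing and stability, 0 passed by edgeR, DESeq2 or limma-voom, with a median log2 fold change of 0.02. An unadjusted p under 0.05 was seen for 3 (21.6% of all tested genes), and 2 had groups without overlap (9.1% of all tested genes). Tefm, the elongation factor that keeps POLRMT on its template, had 7.29, 7.97, 7.08 and 9.50 CPM in KO 1 to KO 4, and 5.57, 6.01, 5.36, 6.48 and 6.18 CPM in WT 1 to WT 5. All KO libraries lay above all WT libraries (0.43 ± 0.12, edgeR adjusted p = 0.0630). Rexo2, an exonuclease for short RNA, was at 79.4 to 91.0 CPM in KO and 75.1 to 81.5 CPM in WT (0.12 ± 0.04, edgeR adjusted p = 0.153). Of 17 nucleotide supply genes, 16 were tested and 0 passed by edgeR, DESeq2 or limma-voom, with a median of 0.05. Of the 16, 5 had an unadjusted p under 0.05 and 1 had groups without overlap, against the same shares of all tested genes. Suclg1, a succinyl-CoA ligase subunit, was at 63.7 to 66.6 CPM in KO and 56.2 to 62.5 CPM in WT (0.12 ± 0.04, edgeR adjusted p = 0.153). Rrm2, the S-phase subunit of ribonucleotide reductase, had 60.8, 29.9, 33.9 and 69.9 CPM in KO 1 to KO 4 and 18.7 to 40.5 CPM in WT (0.98 ± 0.35, edgeR adjusted p = 0.161), following the cycling markers in its highest libraries.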

How the data were processed

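Values are raw counts, deposited by the authors as 1 table of whole numbers with gene symbols in rows and libraries in columns. Total RNA was made into stranded Illumina TruSeq libraries, per the labels' protocols. STAR 2.7, DESeq2 and mm10 are named in the submitters' processing notes without a role. The counting program, its annotation and its use of strand, not given in the sources used here, leave reads of overlapping genes uncertain. Of the members, Tfb1m, Polg, Polg2, Gabpa and Mterf3 share exon bases with a gene on the opposite strand. The labels mention no molecular identifiers, and the limit for a gene with 0 counts (3 counts) reflects counting error only. Library totals of 15269014 to 17425634 counts set the precision.

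Titles gave the groups, and each of the 9 columns matched 1 sample. The members and lists were chosen with earlier results of these data known. All genes entered 1 quasi-likelihood fit in edgeR 4.0.16 (R 4.3.3; robust, trimmed-mean scaling, default expression filter), checked on simulated data. Standard errors follow from each fold change and its F value. CPM values in the text use library totals. Shares, ratios and correlations were tested by exact permutation over libraries, two-sided, with p adjusted by Benjamini-Hochberg. Named genes are all members and, from each list, the called genes or else the 2 with the smallest p. Gabpb1, Twnk, mt-Rnr2, mt-Co1, mt-Nd5 and mt-Nd6 were added for their roles after their values were seen, as was the comparison with cycling markers. Gene positions and transcript lengths come from GENCODE M21 on mm10. Older symbols were matched through RefSeq for 4 list genes. DESeq2 1.42.0 and limma 3.58.1 served as alternatives. Other scalings, filters, replicate blocks and left-out libraries were also tried. Replicate numbers were not used to pair the libraries in the main fit.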

Additional observations from a re-analysis of the deposited data

Results flagged for a closer look

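Libraries that stood apart from the rest of their own group were looked for in 36 groups of values, and 5 were found. By chance alone such a gap comes in about 5% of groups. The groups are not independent, since some rest on the same counts. The share in all mt- genes and that in protein-coding mt- genes are nearly the same quantity. WT 1 had the highest share of mt- counts in WT, 2.01% against 1.62% in the next library, and the highest share in protein-coding mt- genes, 1.93% against 1.58%. WT 1 also had the highest ratio of Polrmt to Tfam counts in WT, 95.7% against 84.0%. WT 2 had the highest sum of cycling markers in WT, 526 CPM against 351 CPM in the next library. KO 3 had the lowest Nrf1 level in KO, 67.8 CPM against 71.3 CPM in the next library.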

How the results depend on the processing

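The count of called members stayed at 0 in all 19 alternative fits, including the replicate block on title numbers (0) and on bracketed library numbers (0), and no list other than the regulators gained a call. Same-numbered libraries deviated together weakly or not at all, with correlations of -0.07 to 0.10 for title numbers and -0.26 to 0.10 for bracketed library numbers. What the numbers stand for was not tested. The regulator count was 1 with a mean CPM of at least 5 (Gabpb2), 2 with DESeq2 and 0 to 1 when 1 library was left out. Signs of small fold changes turned: without KO 1 and KO 4 for Polrmt (0.073), Polg (0.021), Mterf3 (0.0092) and Ssbp1 (0.033), under the title-number replicate block (0.0035) and the library-number replicate block (0.022) for Ssbp1, and when 1 library was left out for Polrmt (-0.11 to 0.014) and Ssbp1 (-0.052 to 0.028). The mitochondrial share differed by 0.0570 points without KO 1 and KO 4 and by -0.0550 to 0.0747 when 1 library was left out. With the share, 0 members were correlated under any alternative, and r turned for Polg with ribosomal RNA genes only (-0.16), without KO 1 and KO 4 (-0.35) or without 1 library (-0.11 to 0.13), for Polg2 (-0.17) and Ssbp1 (0.094) without the 2 farthest libraries, and without 1 library for Polg2 (-0.17 to 0.70), Nrf1 (-0.24 to 0.51) and Ssbp1 (-0.84 to 0.12). With cycling markers, 3 members were correlated, 1 without KO 1 and KO 4 and 0 to 4 without 1 library. Their r turned within genotypes for Tfam (0.16) and Nrf1 (0.36), with 4 mitotic markers alone for Tfam (0.0079), without KO 1 and KO 4 for Nrf1 (0.047) and Ssbp1 (0.38), and without 1 library for Tfam (-0.23 to 0.34) and Ssbp1 (-0.51 to 0.26). The count of partner ratios that differed was 1, and 0 without KO 1 and KO 4 and without any 1 library, where the fewer splits leave no adjusted p under 0.05 within reach for 1 ratio among 4. For Gabpa to Nrf1 the unadjusted exact permutation p also rose above its smallest possible value in 2 sets. It was 0.0536 without KO 4 (smallest possible 0.0179) and 0.0952 without KO 1 and KO 4 (smallest possible 0.0476). The difference in the Polrmt to Tfam ratio was 0.13 without KO 1 and KO 4 and -0.090 to 0.062 without 1 library. The count of correlated member pairs was 1, and 0 within genotypes, 0 without KO 1 and KO 4 and 0 to 1 without 1 library, while r of Polrmt with Polg lay between 0.80 and 0.93 in these and with another scaling (0.79 without KO 1 and KO 2). Where not stated, the cause was not tested. Tfb1m and Tfb2m had the fewest counts, which limits what their fits could detect.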

Other observations

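Outside the pathway, the genes whose log2 CPM over the 9 libraries was most like that of Tfam, among 8782 other tested genes with a mean of at least 10 CPM, were Nudt16 (r = 0.98), Atxn1l (r = 0.98) and Vmac (r = 0.96). For Polrmt they were Stard3 (r = 0.96), Bsdc1 (r = 0.94) and Gigyf2 (r = 0.93), and Polg came at rank 19 with r = 0.90. Tfam and Polrmt were not alike (r = -0.26). These are the extremes of many genes over few libraries and are given without a test.

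Besides Atp5j, 5 genes share exon bases with a member on the opposite strand. Ptdss1, which shares 229 exon bases (4.67%) with Mterf3 and was more abundant by CPM, averaged 70.0 CPM in KO and 63.7 CPM in WT, with a log2 fold change of 0.13 against -0.07 for Mterf3 (edgeR adjusted p of 0.139 and 0.554), and its part in the counts of Mterf3 was not tested. Gm10767, which shares 33 exon bases with Mterf3, averaged 0.822 CPM in KO and 0.754 CPM in WT. Fanci, which shares 921 exon bases with Polg, averaged 11.4 CPM in KO and 10.7 CPM in WT (edgeR adjusted p = 0.780). Milr1, which shares 132 exon bases with Polg2, averaged 9.20 CPM in KO and 10.2 CPM in WT, with a log2 fold change of -0.15 (edgeR adjusted p = 0.403). Tiam2, which shares 142 exon bases with Tfb1m, averaged 1.24 CPM in KO and 1.90 CPM in WT (edgeR adjusted p = 0.153).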
